A study of Ulva lactuca with 7 samples.

Results

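Thalli of the green seaweed Ulva lactuca that had dried for 36 h at 20% moisture were compared with thalli that had stayed under seawater throughout, the control. Each condition was 1 library, so this comparison uses 2 of the 7 libraries of the series. The other 5 libraries came from thalli dried for 24 or 72 h, and from thalli that spent 1 h in autoclaved seawater following 24, 36 or 72 h of drying. The thalli were acclimatised in the laboratory first. Total RNA was prepared with a plant kit and sequenced from a TruSeq-type library, with 1 protocol stated for all samples. The labels give no strain, genotype or number of thalli in a library. The title of the control begins with 24, and its treatment label was followed.

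Transcripts were compared where the mean count over the 7 libraries was at least 10. This held for 66046 of the 137594 assembled transcripts, in 22319 of 90206 assembled genes. An assembled gene is the identifier without its isoform number, and the transcript with the highest summed count stood for it where 1 transcript per gene is given. Of the transcripts past the filter, 995 had no count in either of the compared libraries and 2415 had at most 3 counts in each. The 995 had a log2 ratio of 0 by construction and were kept in the shares and medians of the compared transcripts. The median transcript had 1759 nt and 56.8% GC.

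Ulva is a flat blade of the intertidal zone that loses water when the tide leaves it exposed. Drying concentrates the cell contents, slows photosynthesis and raises oxidative stress, and tolerant algae are known for protective proteins, antioxidant enzymes and compatible solutes that limit the damage. The series asks which transcripts go with drying and with the return to water. The files used here pair no transcript with a gene name or product, so transcripts are given by their assembly identifiers and none is assigned to a pathway.

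The total count was 89184889 in the 36 h library and 64315136 in the control, within the range of 63782317 to 97270080 over the 7 libraries. These totals are 2.74 and 2.69 times the library sizes that the deposited FPKM values imply (FPKM scales a count to transcript length and library size). Whether 1 read was counted on several isoforms was not tested. Counts were scaled by trimmed means (TMM) and are given as CPM, the count scaled to a common library size. A 4-fold difference was the threshold. Values called log2 ratios carry a prior count of 2, which pulls ratios of low counts toward 0, while the ratios and folds printed with an interval are those of the scaled counts themselves, so the 2 scales differ where a count is low. With 1 library on each side there is no test, and the 95% intervals given are exact intervals from both counts, which cover counting error only. All intervals given take each count as an independent read. They would be too narrow even for counting error if 1 read was counted on several isoforms. A library with less RNA per cell and one with fewer cells of a type cannot be told apart in such data.

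After 36 h of drying, 5610 transcripts stood 4-fold or more over the control (8.49% of all compared) and 3954 were at least 4-fold below it (5.99%). With 1 transcript per assembled gene, 2437 genes were higher (10.9%) and 1575 lower (7.06%). Most transcripts were close to the control, with 59.99% of transcripts and 56.3% of genes within 2-fold. The quartiles of the log2 ratio were -0.71 and 0.85 and its median was 0.03. The higher side was also the larger one at greater differences. At least 16-fold apart were 1215 transcripts higher (1.84%) and 659 lower (0.998%). At least 64-fold apart were 381 higher (0.577%) and 124 lower (0.188%). Per assembled gene, 514 were at least 16-fold higher (2.30%) and 343 lower (1.54%), and 115 were at least 64-fold higher (0.515%) and 55 lower (0.246%). The counting interval lay wholly beyond 4-fold for 3305 transcripts above the control (5.0%) and 2368 below it (3.59%). For genes these were 1188 (5.32%) and 944 (4.23%).

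The surplus of higher transcripts depended on the scaling. With scaling by total counts 4668 transcripts were higher and 5050 lower, and 2066 genes higher and 1943 lower. Under it the median over all compared transcripts shifted by -0.18 on the log2 scale. Differences are therefore given relative to the TMM scaling.

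**Figure D1:**
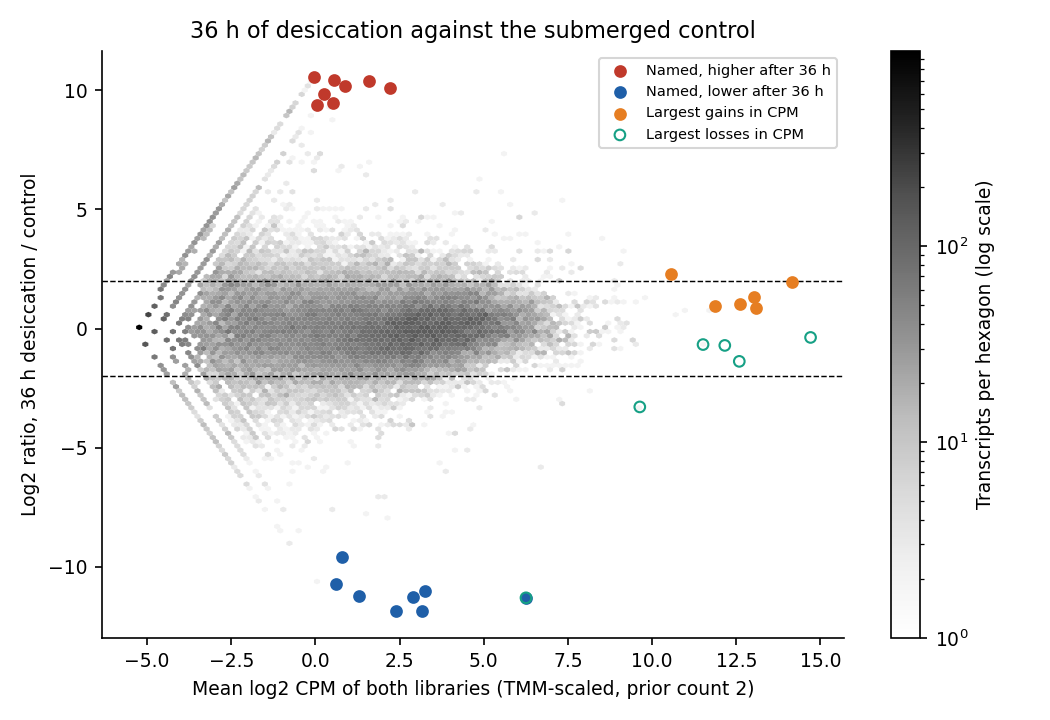
Log2 ratio of the 36 h library over the control (vertical axis) against the mean log2 CPM of both libraries (horizontal axis) for the 66046 transcripts, with the number of transcripts per hexagon in grey and the 4-fold thresholds dashed. Points in red and blue are the transcripts named in each direction by the bound of the counting interval nearest to 1. Points in orange and green rings are those with the largest gains and losses in CPM, 1 of them in both groups. On this scale, with its prior count of 2, the red points lie between 9.40 and 10.55 and the blue ones between -11.87 and -9.59, while most of the largest gains and losses in CPM lie within 4-fold.

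The 8 transcripts named as highest, by the bound of the counting interval nearest to 1, had 0 to 8 counts in the control. Transcript c32320_g1_i1 (1375 nt, 52.0% GC) had 9057 counts after 36 h and 4 in the control, a ratio of 1925 (95% counting interval 752 to 7067). It had 16213 and 4001 counts after 24 and 72 h of drying, and 10409, 4000 and 1 in thalli resubmerged after 24, 36 and 72 h. It was thus high in the dried libraries and in the first pair of resubmerged ones, and near 0 in the control and after the 72 h return. Transcript c32084_g1_i1 (1174 nt, 57.2% GC) had 5149 counts after 36 h and 2 in the control, a ratio of 2189 (606 to 18079). Its counts were 11051 and 3169 after 24 and 72 h of drying and 3925, 8058 and 3 after resubmergence, the same order of high and near-silent libraries. Transcript c33475_g3_i10 (1930 nt, 57.4% GC) had 2921 counts and 1 count, a ratio of 2483 (445 to 98122), in the 36 h library and the control. The other 10 transcripts of its assembled gene ranged from -2.38 to 9.79 in log2 ratio, so that 1 gene held transcripts that differed in both directions. Transcripts c26154_g1_i2 and c30976_g1_i5 had 3130 and 2168 counts after 36 h and 2 and 1 in the control, ratios of 1331 (368 to 10992) and 1843 (330 to 72836). Transcript c21645_g1_i1 had 4408 counts after 36 h and 1 in the control, a ratio of 3748 (672 to 148057). Transcript c31946_g1_i11 had 3026 counts after 36 h and 0 in the control, which makes it at least 858-fold higher with the control set at 3 counts. Of the 8 transcripts, 7 had between 0 and 7 counts in the library resubmerged after 72 h.

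Transcript c34519_g1_i1 (8240 nt, 50.5% GC) differed from those 7 in its pattern over the libraries. It had 12552 counts after 36 h and 8 in the control, a ratio of 1334 (677 to 3090), with 2527 and 7894 counts after 24 and 72 h of drying. In thalli resubmerged after 24, 36 and 72 h it had 18, 50 and 217 counts, so all 3 dried libraries lay above all 3 resubmerged ones. Transcript c34648_g1_i3 (11069 nt, 50.05% GC) had the same order, with 16045 counts after 36 h and 124 in the control, a ratio of 110 (92.2 to 132). It had 2673 and 9830 counts in the libraries dried for 24 and 72 h and 182, 271 and 526 in the resubmerged libraries. Both were highest at 36 h among the 7 libraries, and both are long, against a median of 1759 nt.

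Among transcripts with at least 10000 counts in 1 of the compared libraries, c34582_g1_i3 and c33839_g1_i3 also stood at the top. Transcript c34582_g1_i3 (5671 nt, 55.3% GC) had 49770 counts after 36 h and 263 in the control, a ratio of 161 (143 to 182). It kept 45946 counts in thalli resubmerged after 24 h and had 167 and 229 in those resubmerged after 36 and 72 h, beside 35366 and 14211 after 24 and 72 h of drying. Transcript c33839_g1_i3 (512 nt, 54.5% GC) had 22000 and 236 counts in the 36 h library and the control, a ratio of 79.3 (69.7 to 90.5). Its counts were 76596 and 22152 after 24 and 72 h of drying and 27904, 281 and 1876 in the resubmerged libraries, so it too was high in the thalli resubmerged after 24 h and low in the other resubmerged ones.

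On the lower side, the transcript with the most counts in the control among the 8 named as lowest was c16710_g1_i1 (1549 nt, 53.8% GC). It had 121 counts after 36 h and 265914 in the control, 2585-fold lower (2163 to 3115), and its FPKM was 2.40 against 7172. It had 75 and 31 counts after 24 and 72 h of drying and 41, 407263 and 467766 in thalli resubmerged after 24, 36 and 72 h. The dried libraries and the first resubmerged library were near-silent, and the other resubmerged libraries were above the control in count. The library resubmerged after 36 h thus held a transcript in abundance that the 36 h dried library almost lacked.

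The same division ran through c34415_g1_i1, c34555_g1_i1 and c34611_g1_i2, all of 39.4 to 42.5% GC. Transcript c34415_g1_i1 (3334 nt) had 10 counts after 36 h and 25595 in the control, 3011-fold lower (1637 to 6279), and 1, 12055 and 34823 after resubmergence. Transcript c34555_g1_i1 (1854 nt) had 15 counts after 36 h and 30267 in the control, 2373-fold lower (1439 to 4241), and 0, 14609 and 31133 after resubmergence. Transcript c34611_g1_i2 (3207 nt) had 3 counts after 36 h and 3289 in the control, 1290-fold lower (441 to 6256), and 0, 1488 and 4797 after resubmergence. The dried libraries of 24 and 72 h had between 1 and 8 counts of these 3 transcripts. Transcript c33025_g1_i1 had 10 counts after 36 h and 38318 in the control, 4507-fold lower (2450 to 9399). Transcript c34706_g3_i1 had 5 counts after 36 h and 22172 in the control, 5216-fold lower (2235 to 16065).

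The last of the 8 lower transcripts were less uniform over the dried libraries. Transcript c31749_g1_i1 (1009 nt, 58.7% GC) had 2 counts after 36 h and 8306 in the control, 4885-fold lower (1352 to 40342), but 1232 and 21553 after 24 and 72 h of drying. It had 0, 1378 and 9909 counts in the resubmerged libraries, so that only the 36 h dried library and the one resubmerged after 24 h were near-silent. Transcript c31558_g1_i5 (5734 nt, 67.2% GC) had 1 count after 36 h and 4371 in the control, 5141-fold lower (922 to 203113). It had 3 and 61 counts after 24 and 72 h of drying and 8, 665 and 233 after resubmergence, and the other 9 transcripts of its assembled gene ran from -11.34 to -8.37 in log2 ratio.

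**Figure D2:**
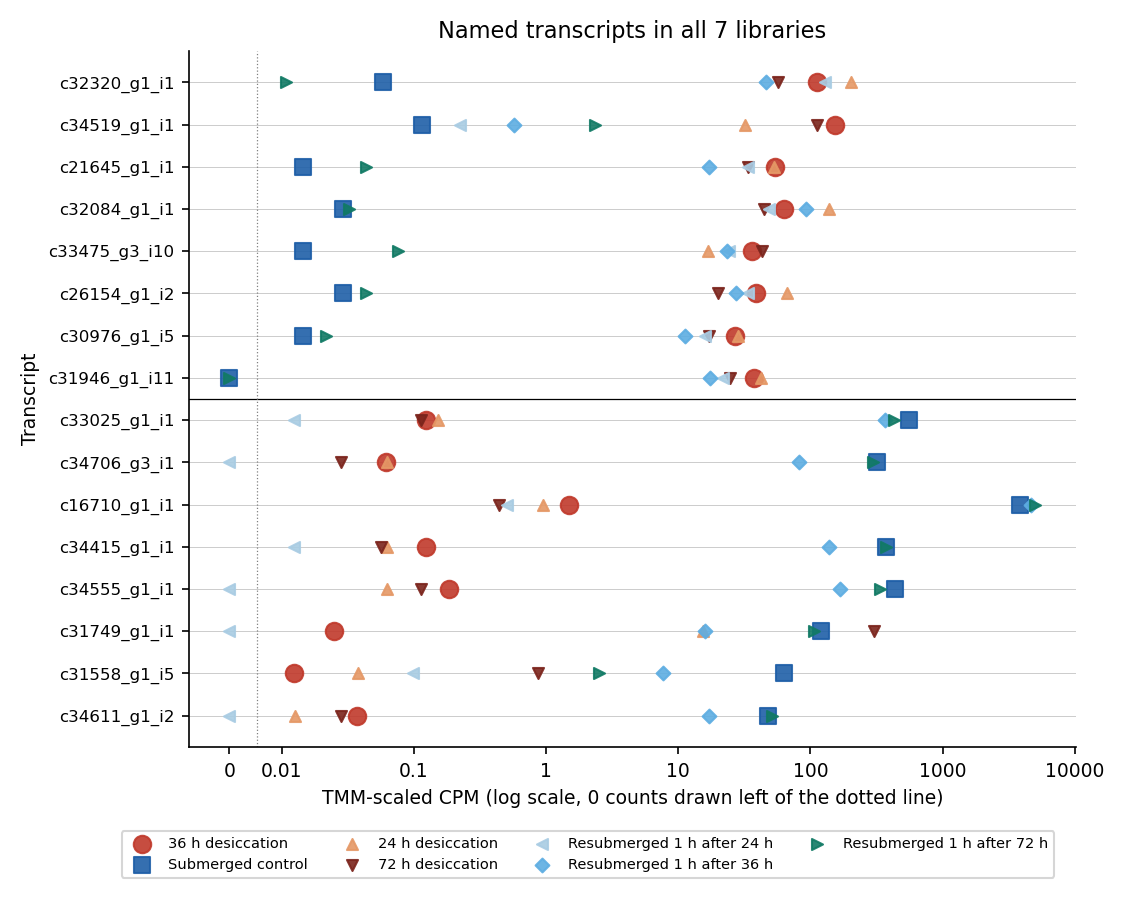
TMM-scaled CPM (horizontal axis, log scale) of the 8 transcripts named as highest (above the line) and the 8 named as lowest (below it) after 36 h of drying, with 1 point for each of the 7 libraries and 0 counts drawn left of the dotted line. Large red circles are the 36 h library and large blue squares the control. The 36 h library lies between 26.7 and 154 CPM in the upper rows, where the control lies between 0 and 0.116, and the library resubmerged after 72 h stands with the control in most rows above and below the line.

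Presence and absence were also counted. Of the 66046 compared transcripts, 370 in 198 assembled genes had at least 50 counts after 36 h and 0 in the control. Their median was 147 counts and their highest count 3026. The opposite, at least 50 counts in the control and 0 after 36 h, was found for 78 transcripts in 55 genes. Their median was 112 and their highest count 4461. These counts were unscaled, and the 36 h library was deeper, with a total of 89184889 against 64315136 in the control. How far this depth bears on the surplus of the 370 over the 78 was not tested. The 370 had a median GC of 50.7% and the 78 a median of 56.5%. Of the 370, 70.3% and 71.6% had 50 counts in the libraries dried for 24 and 72 h, near but under the 72.6% and 75.2% of all compared transcripts. In thalli resubmerged after 24, 36 and 72 h, 57.3%, 56.8% and 7.03% of them had 50 counts, where the shares of all compared transcripts were 72.8%, 77.1% and 76.3%. The library resubmerged after 72 h had no count for 187 of the 370. Of the 78, 8.97% and 11.5% had 50 counts after 24 and 72 h of drying, and 6.41%, 48.7% and 42.3% in the resubmerged libraries. These too were below the shares of all compared transcripts. Both sets were chosen for 0 counts in 1 compared library and had medians of only 147 and 112 where present. Shares below those of all compared transcripts therefore follow in part from that choice. The library resubmerged after 72 h therefore had under 50 counts for most of the 370, which were chosen for their absence from the control.

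The control and the 36 h library did not stand apart from the rest to the same extent. Of the 66046 compared transcripts, few set the 36 h library apart from each of the other 6 by 4-fold, 89 above and 115 below. The control stood below each of the other 6 libraries for 704 transcripts and above each of them for 257. These numbers are not like for like. The 36 h library was set against other dried libraries, while the control was the only library from thalli never dried. All 704 and 257 enter the comparison by construction, as 12.5% of the 5610 higher and 6.50% of the 3954 lower transcripts. The 36 h library itself stands apart from all others for 1.59% of the 5610 and 2.91% of the 3954. Without the transcripts of a control that stands apart, 4906 were higher and 3697 lower. With 1 control library, what is particular to that library and what goes with 36 h of drying cannot be told apart.

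**Figure D3:**
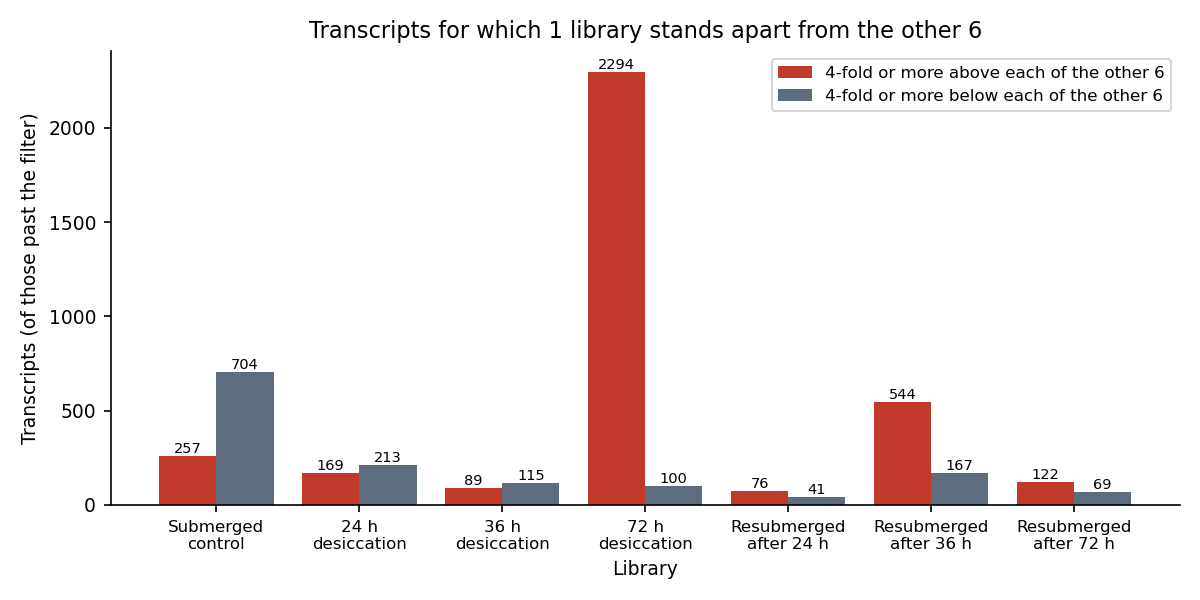
Number of transcripts, of the 66046 past the filter, for which 1 library was at least 4-fold above (red) or below (grey) each of the other 6, by library (horizontal axis, control first and then in order of time within the dried and the resubmerged libraries). The 36 h library has 89 above and 115 below, against 257 and 704 in the control and 2294 and 100 in the library dried for 72 h.

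The transcripts that set the 36 h library apart most were short on the higher side. Transcript c33399_g2_i2 (294 nt, 50.7% GC) had 1198 counts after 36 h and 9 in the control, a ratio of 113 (59.4 to 248), and between 10 and 26 counts in the other 5 libraries. Transcript c31460_g1_i1 (578 nt) had 311 counts after 36 h and 1 in the control, with 0 to 5 elsewhere. Transcripts c30321_g1_i4 (210 nt) and c31355_g1_i1 (263 nt) had 235 and 209 counts after 36 h, 1 and 0 in the control and at most 2 in any other library. Like c31460_g1_i1, both passed the count filter only through their counts in the 36 h library. That these transcripts set it apart therefore follows from the filter and the choice. On the scale with a prior count of 2, each of the 4 named on the higher side was at least 44.5-fold above the nearest of the other 6 libraries. On the lower side, c34129_g5_i1 (1247 nt, 54.9% GC) had 4 counts after 36 h and 485 in the control, 143-fold lower (55.3 to 526). It had 2313 and 1088 counts after 24 and 72 h of drying and 1807, 1717 and 1641 in the resubmerged libraries, so the 36 h library alone lacked it. Transcript c33031_g2_i7 (4572 nt, 62.0% GC) had 9 counts after 36 h and 2164 in the control, 283-fold lower (149 to 619), with 385 to 2061 counts in the other 5 libraries. The other 11 transcripts of its assembled gene had log2 ratios of -7.80 to -5.97. Transcript c29364_g3_i2 (985 nt) had 16 and 480 counts in the 36 h library and the control and 911 to 2850 elsewhere. Transcript c31023_g1_i1 (859 nt) had 0 counts after 36 h and 287 in the control, and 33 after 24 h of drying, its lowest elsewhere.

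Apart from c16710_g1_i1, the transcripts with the largest gains and losses in CPM differed by far smaller factors. Transcript c34767_g1_i1 (1195 nt, 37.9% GC) had 2893294 counts after 36 h and 641461 in the control, which is 3.24% of all counts (Wilson 95% interval 3.24 to 3.25) against 0.997% (0.995 to 1.00). Its scaled level was 35566 CPM after 36 h and 9275 CPM in the control, a ratio of 3.83. It had 4504130 counts after 24 h and 733712 after 72 h of drying, and 591825 to 755857 in the resubmerged libraries, so it was highest at 24 h and 36 h. Transcript c27893_g2_i1 (1668 nt, 34.8% GC) had 272216 and 46831 counts in the 36 h library and the control, a ratio of 4.94 (4.89 to 4.99). It had 835007 counts after 24 h of drying and 33704 to 68905 in the remaining libraries, the same order as c34767_g1_i1. Transcript c29095_g1_i1 (2715 nt, 35.2% GC) had 421041 and 184042 counts, 5176 CPM after 36 h and 2661 CPM in the control, with 615101 counts after 24 h.

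The other gains were those of c33915_g1_i2, c68860_g1_i1 and c34328_g5_i2, with ratios of 2.49, 1.82 and 2.04. Per length, c68860_g1_i1 (325 nt) was the most abundant transcript of the 36 h library among the named, at 91031 FPKM, against 57795 FPKM in the control. Transcript c33915_g1_i2 (3584 nt) had 1071851 counts after 36 h and 365836 in the control, and 269794 to 672789 in the other libraries, so that the 36 h library was the highest of the 7.

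Among the losses, c33257_g3_i2 (1333 nt, 54.1% GC) had 1910882 counts after 36 h and 2107334 in the control, or 2.14% and 3.28% of all counts, and was 1.30-fold lower. The second transcript of that assembled gene, c33257_g3_i1, had 4109 CPM after 36 h and 4381 CPM in the control (1.07-fold lower). Transcript c68088_g1_i1 (236 nt, 61.0% GC) was 2.60-fold lower (2.59 to 2.61), with 40540 FPKM after 36 h and 121756 FPKM in the control. It had 2187452 and 2059093 counts in the libraries resubmerged after 24 and 36 h, against 351505 and 310861 in those dried for 24 and 36 h, and 652605 after resubmergence from 72 h. Transcript c33085_g1_i4 (1541 nt, 57.6% GC) had 20644 counts after 36 h and 172126 in the control, 9.81-fold lower (9.67 to 9.95), but 256164 and 63628 after 24 and 72 h of drying. The 36 h library was its lowest of the 7. The other 3 transcripts of its assembled gene ranged from -3.43 to 0.57 in log2 ratio, so the loss did not hold for all transcripts of that gene. The remaining losses were those of c16710_g1_i1, 2585-fold lower as given above, and of c79026_g1_i1 and c34549_g2_i2, which were 1.64-fold and 1.60-fold lower.

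Of the abundant control transcripts named for a small difference under the TMM scaling, c11319_g1_i1 was 1.19-fold and c32695_g1_i1 1.08-fold lower after 36 h. Their levels were 5095 and 2467 FPKM after 36 h and 6997 and 3084 FPKM in the control. How near these transcripts lie to the control depended on the scaling: with total counts c11319_g1_i1 was 1.40-fold, c32695_g1_i1 1.28-fold and c33257_g3_i1 1.26-fold lower, all past the limit used to name them.

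**Figure D4:**
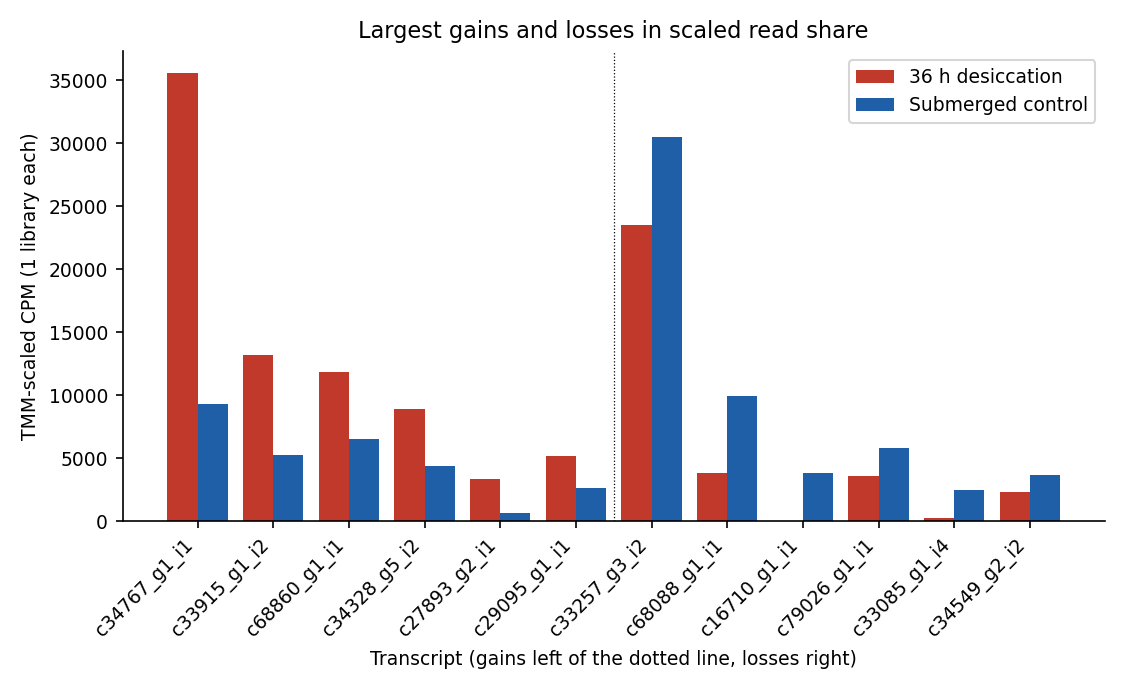
TMM-scaled CPM (vertical axis) in the 36 h library (red) and the control (blue), 1 library each, for the 6 transcripts with the largest gain (left of the dotted line) and the 6 with the largest loss (right). The largest gain is 35566 CPM against 9275 CPM for c34767_g1_i1, and c16710_g1_i1 has 1.49 CPM against 3845 CPM.

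Together, the 5610 higher transcripts took 11.8% of all counts after 36 h and 1.81% in the control, and the 3954 lower ones 0.686% and 7.04%. The higher set had a median of 205 counts after 36 h and 13 in the control. The lower set had a median of 23 and 188.5. Both sets were shorter than the rest, with medians of 1259 and 1314.5 nt against 1854 nt for transcripts within 4-fold. Of transcripts under 500 nt, 12.4% were higher and 8.68% lower, and of those of 4000 nt or more, 4.14% and 3.52%. Of transcripts with a mean count of 1000 or more, 6.72% were higher and 2.43% lower, against 11.9% and 7.53% of those with a mean count of 10 to under 30.

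From 50% GC upward, GC content went with the direction of the difference. Higher transcripts had a median GC of 55.6% and lower ones 60.9%, against 56.6% for those within 4-fold. Transcripts of 60% GC or more, 22484 in number, had a median log2 ratio of -0.39, and 6.08% of them were higher and 9.65% lower. Those of 50 to under 60% GC had a median of 0.24, with 9.43% higher and 3.90% lower. In bands of 5 points, chosen after the data were seen, the lower share was greater in each band above that of 50 to 55%, where it was 3.04%, up to 24.2% of the 769 transcripts of 70% or more, where 2.08% were higher. The lower share was also greater in the bands under 50%, with 8.90% lower and 8.76% higher among the 1393 transcripts of 40 to 45%. With 1 transcript per gene the band of 70% or more had 19.3% lower and 2.18% higher among 275 genes. With the trend on GC content removed, 5411 transcripts were higher and 3423 lower.

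Transcripts under 40% GC took 5.41% of all counts after 36 h and 2.57% in the control. Of this, c34767_g1_i1, c27893_g2_i1 and c29095_g1_i1 held 4.02% and 1.36%, and the remaining 424 transcripts took 1.39% after 36 h and 1.22% in the control. Of the 427 transcripts of that class 15.7% were higher and 10.5% lower, with a median log2 ratio of 0.00. That median is the value held by transcripts without a count in either compared library, so it does not measure a balance of directions.

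**Figure D5:**
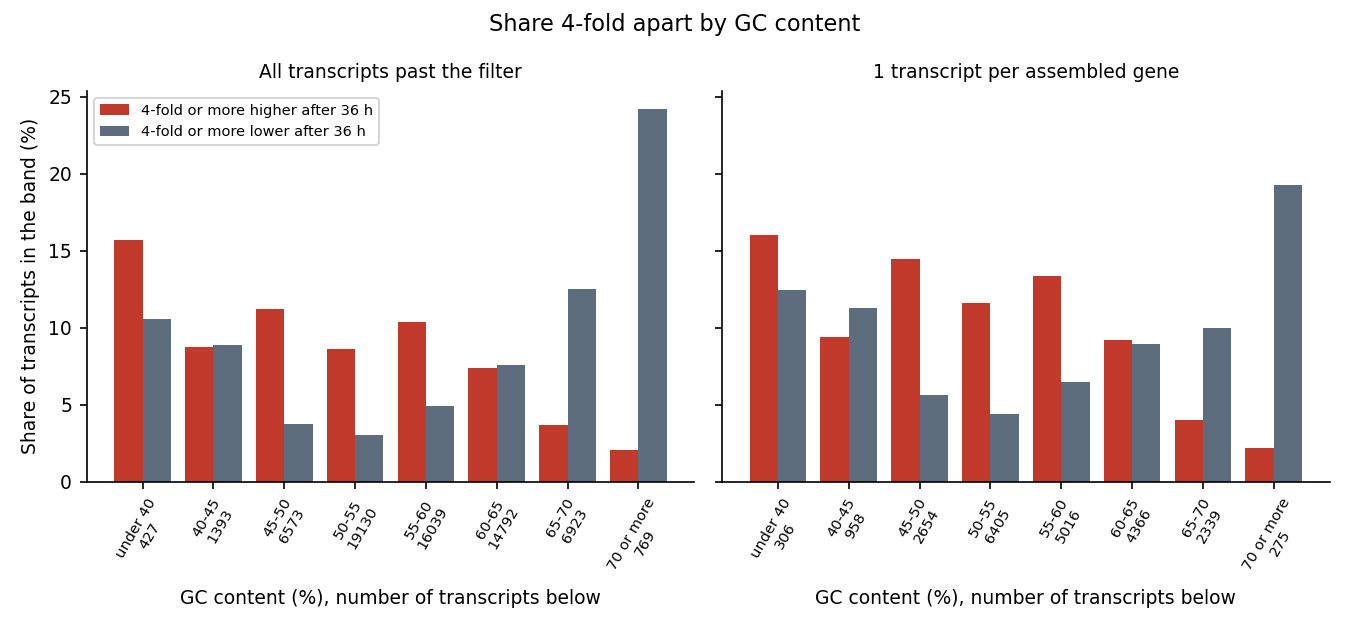
Share of transcripts at least 4-fold higher (red) or lower (grey) after 36 h than in the control (vertical axis, percent) by GC content (horizontal axis, with the number of transcripts under each band), for all transcripts and for 1 transcript per assembled gene. The lower share is 3.04% at 50 to 55% GC and 24.2% at 70% or more on the left, and 4.39% and 19.3% on the right.

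Transcripts of 1 assembled gene seldom differed in opposite directions, but often only some of them were 4-fold apart. Of the 10455 compared genes that held 2 or more transcripts, 78.0% had none 4-fold apart, 625 had all higher and 449 all lower. Some but not all transcripts were higher in 658 genes and lower in 541, and 25 genes held both. Of the 2298 genes with any transcript 4-fold apart, 1074 had all of them on 1 side. The 5610 higher transcripts came from 2874 genes, 1917 of them with 1 such transcript, and the 3954 lower ones from 1936 genes, 1195 with 1. The genes with the most such transcripts were named after their values were seen. In c34193_g2 all 16 transcripts were higher, by 3.08 to 3.63 on the log2 scale, and in c33342_g1 16 of 18, by 3.66 to 5.70. The transcript of c34193_g2 with the most counts, c34193_g2_i15, had 9637 counts after 36 h and 785 in the control, and 43245 in thalli resubmerged after 24 h, its highest. On the lower side, 16 of 17 transcripts of c33073_g1 had log2 ratios of -3.21 to -2.19 and 15 of 17 of c32329_g1 had -4.12 to -2.86. Transcript c32329_g1_i15 had 100 counts after 36 h and 1348 in the control, and 3516 after 24 h of drying. Because isoforms can share reads, agreement within a gene is no independent support.

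The authors' deposited table for this pair gives adjusted p-values of 1 library against 1. By the authors' deposited table, 352 transcripts in 113 assembled genes were higher after 36 h at an adjusted p under 0.05 (0.315% of the 111754 with a p-value) and 129 in 65 genes were lower (0.115%). The smallest differences called in the authors' deposited table were 27.8-fold in both directions. The authors' deposited table labels 2060 transcripts in 708 genes as higher and 1226 in 489 genes as lower, each with an unadjusted p-value under 0.05. The calls in the authors' deposited table were nearly silent on one side, with a median of 1058.5 counts after 36 h and 1 in the control for the higher calls and of 10 and 2290 for the lower ones. The authors' deposited table called all 16 transcripts named by the bound of the counting interval, and 1 of the 12 with the largest gains or losses in CPM, c16710_g1_i1. It called 4 of the 8 that set the 36 h library apart from the other 6, and 0 of the 3 named for a small difference. These calls rest on the same libraries and counts as the naming, so the overlap is no independent support. With 1 library a side, their p-values do not measure the spread between thalli.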

How the data were processed

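RNA of Ulva lactuca thalli was sequenced in 7 libraries, 1 per condition, grouped by treatment label. Tools named in the submitters' processing notes are cutadapt, Bowtie2 and DESeq, with no version or role. The programs for assembly and counting are not named in those notes. Per the file headers, the authors' expression table gives, per transcript and library, a read count and an FPKM, with length and GC content in percent. Per the file headers, the authors' comparison table gives a fold change (ratio), a p-value, an adjusted p-value and a signal, the count divided by a size factor. Its counts equal those of the expression table for all 137594 transcripts.

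Counts were scaled by TMM in edgeR 4.0.16 (R 4.3.3) over transcripts whose mean over the 7 libraries reached 10 counts, and log2 ratios used log2 CPM with a prior count of 2. Exact (Clopper-Pearson) intervals used scipy 1.17.1. A count of 0 was set at a floor of 3 counts per library, 0.0369 CPM in the 36 h library and 0.0434 CPM in the control. Size factors of DESeq2 1.42.0 served as an alternative. Ratio and interval were tried on simulated independent counts, without low control means for the interval and without changed transcripts of low count for the ratio. The simulations do not cover counts near 0, which many named transcripts had in 1 compared library, or reads shared among isoforms.

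Named were, with at most 1 transcript per assembled gene in each part, the 8 highest and 8 lowest by the bound of the counting interval nearest to 1, the 6 largest gains and 6 largest losses in CPM, the 4 highest and 4 lowest against each of the other 6 libraries, the 3 most abundant in the control (FPKM) within 1.25-fold, and the 4 largest ratios in each direction with at least 10000 counts in 1 of both libraries, 41 transcripts in all. The comparison, the rule and the classes were chosen with earlier results of these data known. Intervals reflect counting of independent reads alone: no molecular identifiers are stated, and the spread between thalli is unmeasured. The other authors' comparison tables were not used here.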

Additional observations from a re-analysis of the deposited data

Results flagged for a closer look

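Among the 41 named transcripts, 3 were lower than the control after 36 h of drying and at least 2-fold higher than the same control after another drying period. These differences between periods were not tested, since each period was 1 library. Transcripts c34129_g5_i1 and c29364_g3_i2 had been named because the 36 h library lay far below every other library. That it lay below the libraries dried for 24 and 72 h follows from that choice. Transcript c31749_g1_i1 had log2 ratios to the control (prior count of 2) of -11.25 after 36 h and 1.34 after 72 h. Transcript c34129_g5_i1 had 2.05 after 24 h, -6.57 after 36 h and 1.13 after 72 h. Transcript c29364_g3_i2 had 2.36 after 24 h, -4.97 after 36 h and 1.31 after 72 h.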

How the results depend on the processing

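No paired analysis was possible because each condition had 1 library and the labels carry no replicate numbers, and for the same reason no replicate could be left out. The counts of transcripts at least 4-fold apart, 5610 higher and 3954 lower, stayed within 1.5 times under all alternatives tried but one: with the counting interval wholly beyond 4-fold they were 3305 and 2368. The counts of assembled genes, 2437 higher and 1575 lower, became 1188 and 944 under that rule, 4668 and 2915 with no count filter (more genes entered), and 1201 and 838 with a mean count of at least 50 (fewer entered). A prior count of 10 gave 1398 genes higher. Scaling from both compared libraries alone, chosen after seeing the data, gave 5299 and 4150 transcripts.

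Scaling by total counts moved the median log2 ratio of GC classes to 0.00 (40 to under 50%), 0.0055 (50 to under 60%) and -0.61 (60% or more), those of length from short to long to -0.00096, -0.045, -0.16, -0.23 and -0.16, and those of mean count from 30 upward to -0.16, -0.32 and -0.010. Median-of-ratios size factors gave 0.071, 0.16 and -0.47 for the same GC classes, 0.087, 0.0059, -0.018, -0.074 and -0.0052 for length, and -0.011, -0.16 and 0.15 for mean count. With 1 transcript per gene the medians were 0.30 and -0.37 for the upper GC classes, 0.19 for 500 to under 1000 nt, and 0.14, -0.030 and 0.19 for mean count. These shifts follow from the change of scaling or of the transcripts counted. All 29 named transcripts at least 4-fold apart stayed so under both scalings and with the deposited FPKM values. Most had been named for far larger differences, so for them this was nearly fixed in advance. Their log2 ratios moved by -0.24 to -0.12 with total counts and by -0.079 to -0.038 with median-of-ratios size factors. With the deposited FPKM values the moves ran from -3.11 to 2.49. At low counts the depth limits the comparison, since 3 counts are 0.0369 CPM after 36 h and 0.0434 CPM in the control.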
